A study of Mus musculus with 27 samples.

Results

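Cytosolic ribosomal protein genes encode the protein components of the ribosomes that translate nuclear messages. They were taken as all symbols of the array annotation that read Rpl or Rps followed by a digit, with Rplp0 to Rplp2 and Rpsa. Rps6k kinases and symbols with -ps were left out. Probe sets that name 1 gene only were used, and the probe set with the highest mean stood for each symbol. This gave 63 of the 19937 genes tested, with 21 proteins of the small subunit, 30 of the large subunit and the 3 P-stalk proteins. A further 6 were counted as paralogues (Rpl3l, Rpl7l1, Rpl10l, Rpl39l, Rps4l and Rps27l), of which Rps4l is annotated as a transcribed pseudogene. The symbols Rpl32l and Rps23rg1 also match, as does Rps19bp1, which encodes a binding partner of Rps19 and not a subunit.

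RNA came from pieces of 10 to 20 mg of heart from C57Bl/6J male littermates aged 10 to 12 weeks. The 27 arrays fall into 9 groups of 3, namely TAC JQ1, TAC vehicle and sham vehicle at days 3, 11 and 28 after surgery. Transverse aortic constriction (TAC) narrows the aortic arch and makes the left ventricle pump against a higher pressure. JQ1, an inhibitor of the BET bromodomains that read acetylated chromatin, or its DMSO vehicle was injected from 1.5 days after surgery, and no group had sham surgery with JQ1. The labels do not say that the arrays come from separate animals, so the p-values measure the spread between these samples only.

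Cells make the ribosomal proteins in matched amounts, from promoters that are among the most active in the genome. Their messages begin with a cytosine in a run of pyrimidines, the TOP motif, through which the mTORC1 kinase controls how well they are translated. Growth of the cardiomyocyte under pressure overload is a growth in protein content and is known to involve more ribosomes. Rpl3l is an exception to the general expression of the family, because it is made in heart and skeletal muscle, where it takes the place of Rpl3 in the large subunit.

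Array medians lay between 6.954 and 7.043 on the log2 scale, and 2 arrays of the same group correlated at 0.9863 to 0.9977 over all genes. The 6 cardiomyocyte markers, which define the labelled tissue, had a mean level of 13.32 to 13.50 on every array. Levels of the 63 genes spanned 5.08 (Rpl39l) to 13.51 (Rps6). Such levels depend on each probe set and are not compared between genes. The median residual SD was 0.094 for the ribosomal protein genes and 0.127 for all genes. Many ribosomal protein genes have processed pseudogenes of nearly the same sequence, and whether a probe set tells them apart was not tested.

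Promoters of 51 of the 63 genes were found in RefSeq (build GRCm38.p6) in 60 windows of 250 bases before to 50 bases after the start. The 6 below belong to genes called higher in at least 1 comparison described further on, and to Rpl3l, which went the other way. They show 120 bases before to 30 bases after the start. Rpl10a, Rps21 and Rpl3l have 2 starts each, of which the second is shown for Rpl10a and the first for Rps21 and Rpl3l. Capitals mark matches on either strand to CCGGAAG (an ETS-type site), AAGATGGC (YY1-type), TATAAA (the TATA box) or CTTTCC (a short pyrimidine tract).
Rps12 (chr10:23787180-23787329, minus strand): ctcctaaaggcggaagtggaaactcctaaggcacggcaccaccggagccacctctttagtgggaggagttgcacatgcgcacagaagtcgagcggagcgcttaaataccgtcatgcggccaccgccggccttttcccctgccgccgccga
Rps21 (chr2:180257259-180257408, plus strand): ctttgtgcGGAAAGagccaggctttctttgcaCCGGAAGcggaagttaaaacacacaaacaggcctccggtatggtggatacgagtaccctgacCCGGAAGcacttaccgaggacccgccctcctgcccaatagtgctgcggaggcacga
Rpl10a (chr17:28328445-28328594, plus strand): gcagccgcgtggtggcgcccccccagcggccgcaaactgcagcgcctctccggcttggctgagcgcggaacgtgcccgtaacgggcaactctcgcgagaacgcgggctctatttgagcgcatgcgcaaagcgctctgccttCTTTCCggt
Rpl41 (chr10:128549139-128549288, minus strand): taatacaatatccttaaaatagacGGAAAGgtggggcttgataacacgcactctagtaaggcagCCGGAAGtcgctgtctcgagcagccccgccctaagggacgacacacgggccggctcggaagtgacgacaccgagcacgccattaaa
Rpl6 (chr5:121204381-121204530, plus strand): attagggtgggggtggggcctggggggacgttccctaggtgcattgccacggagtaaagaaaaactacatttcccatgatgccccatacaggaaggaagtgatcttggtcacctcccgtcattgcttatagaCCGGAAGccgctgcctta
Rpl3l (chr17:24727706-24727855, plus strand): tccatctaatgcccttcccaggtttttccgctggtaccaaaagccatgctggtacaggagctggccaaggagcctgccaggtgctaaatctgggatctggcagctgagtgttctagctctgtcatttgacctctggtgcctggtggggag
CCGGAAG was found in 20 of the 60 windows of full length (33.3%), against 8.91% of 32544 distinct promoter sequences. CTTTCC was found in 28 (46.7%, against 26.7%), AAGATGGC in 3 (5%, against 2.77%) and TATAAA in 6 (10%, against 13.6%). In 1 of the 60 windows matches of different motifs shared bases. The printed windows of Rpl41, Rpl6 and Rps21 hold CCGGAAG, and those of Rps12 and Rpl3l hold none of the 4 sets of letters, which says nothing of which factors bind there.

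Averaged over the 63 genes, each set to its own mean over the 27 arrays, the sham hearts had the lowest group mean of every day, and those of day 28 the lowest of all. At day 3 the mean deviations were 0.074, 0.097 and 0.013 (log2) in TAC JQ1 hearts, 0.017, 0.131 and −0.003 in TAC vehicle hearts, and −0.088, −0.071 and −0.055 in sham hearts. At day 11 they were 0.053, −0.001 and 0.016 in TAC JQ1 hearts, 0.021, −0.070 and 0.057 in TAC vehicle hearts, and −0.036, −0.062 and −0.035 in sham hearts. At day 28 they were 0.143, 0.063 and 0.075 in TAC JQ1 hearts, 0.000, 0.012 and 0.082 in TAC vehicle hearts, and −0.185, −0.116 and −0.134 in sham hearts. Sham arrays lay below both TAC groups at days 3 and 28. At day 11 TAC vehicle replicate 2 lay below all 3 sham arrays. The TAC vehicle arrays of day 28 lay within the range of those of day 3, while the sham arrays of day 28 lay below those of both earlier days. The sham vehicle group of day 28 held the lowest of the 9 group means for 37 of the 63 genes, against 8.14% of all genes. The TAC JQ1 group of day 28 held the highest for 24, against 17.8% of all genes. The rise with TAC at day 28 thus stands against a low sham group. A test of whether sham levels differ between days called 0 of the 63 genes, against 0.0652% of all genes (9 at an unadjusted p under 0.05). With array weights the same test called 9, and the share of all genes called with them is not given here. The smallest adjusted p was that of Rps20 (0.253), whose sham values were 11.96, 11.78 and 11.93 at day 3, 11.74, 11.80 and 11.89 at day 11, and 11.63, 11.54 and 11.51 at day 28.

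**Figure D1:**
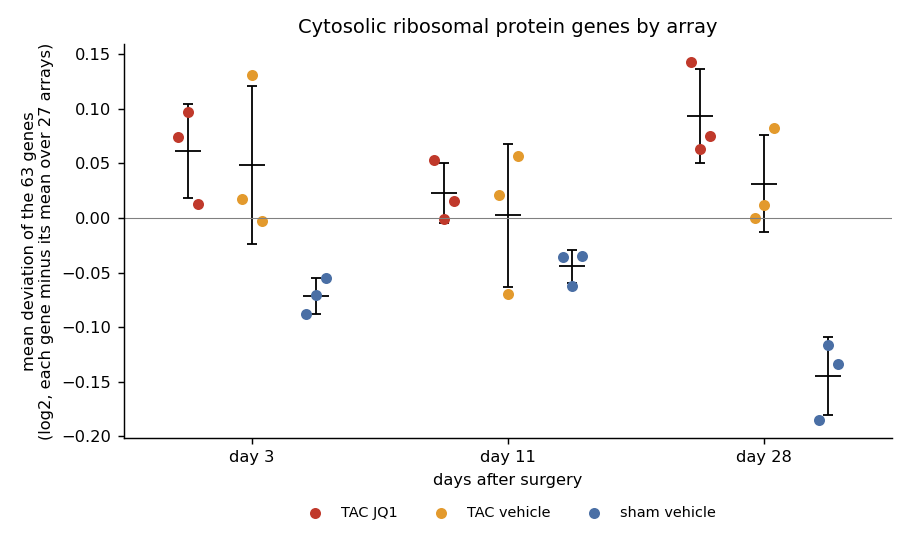
Mean deviation of the 63 ribosomal protein genes on each array (log2, each gene minus its mean over the 27 arrays), by day and group; points are arrays, bars the group mean ± SD. The sham vehicle arrays of day 28 are the lowest, between −0.185 and −0.116, and all 3 TAC JQ1 arrays of that day lie above 0.

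With TAC at day 3, 9 of the 63 genes rose and 1 fell, where 7.55% of all genes were called (4.22% higher and 3.33% lower). The median log2 change of the family was 0.12, against −0.03 for all genes, and 56 of the 63 were above 0. Among small subunit proteins 5 of 21 rose: Rpsa, Rps12, Rps18, Rps28 and Rps9. Rpsa, which in mammals also serves as a laminin receptor, had levels of 10.99, 11.37 and 11.13 in TAC vehicle hearts and 10.57, 10.96 and 10.69 in sham hearts. It rose by 0.42 ± 0.12 (log2 change ± SE, adjusted p = 0.0261), and the 2 groups did not overlap. Rps9, a protein of the decoding region, had 10.56, 10.66 and 10.72 in TAC vehicle hearts and 10.40, 10.29 and 10.37 in sham hearts, a rise of 0.29 ± 0.07 (adjusted p = 0.0132). At day 28 its change was −0.05 ± 0.07 (adjusted p = 0.705), and a difference of the TAC effect between days was not called for it (adjusted p = 0.179). Large subunit proteins rose in 4 of 30, namely Rpl27a (0.29 ± 0.08), Rpl36a (0.27 ± 0.08), Rpl19 (0.22 ± 0.06) and Rpl10 (0.20 ± 0.06). Rpl10 takes part in the last step of large subunit maturation.

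These calls rested on few arrays. Without TAC vehicle replicate 2, the array with the highest family mean of the group, 0 of the 63 were called by limma. The markers of proliferating cells were highest on the same array (mean level 8.22, against 7.29 and 7.51 on the other TAC vehicle arrays and 6.49 to 6.52 in sham hearts). Macrophage markers were also highest there in the group (9.34, against 8.92 and 9.17). Proliferating markers were called higher with TAC in 5 of 5 at days 3 and 11. In TAC JQ1 against sham at day 3 it was 1 of 5. The part of these cells in the result was not tested. The count was 2 without sham replicate 1, 3 without sham replicate 3, 6 without TAC vehicle replicate 3, and 0 when only the 2 groups were fitted. The share of all genes called is not given here for these or later counts with arrays left out or only 2 groups fitted. Such counts therefore cannot be set against it. The call of Rpsa ended on leaving out TAC vehicle replicate 3, sham replicate 1 or sham replicate 3 (adjusted p = 0.052, 0.134 and 0.103). That of Rps9 ended on leaving out TAC vehicle replicate 3 or sham replicate 2 (adjusted p = 0.0662 and 0.0573).

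At day 11 TAC changed 2 of the 63 genes, 1 higher and 1 lower, where 15.5% of all genes were called (7.8% higher and 7.73% lower). The gene that rose was Rpl7, a large subunit protein, with 10.73, 10.58 and 10.81 in TAC vehicle hearts and 10.45, 10.41 and 10.48 in sham hearts (0.26 ± 0.08, adjusted p = 0.028). All its TAC vehicle arrays were above all sham arrays. The median change was 0.07 (0.01 for all genes), and 43 of the 63 (68.3%) were above 0, against 52.3% of all genes. TAC arrays lay wholly above sham arrays for 17 of the 63, where this held for 16.8% of all genes. Rpl7 was not called when TAC vehicle replicate 1 or 3 was left out (adjusted p = 0.0862 and 0.145), or any of sham replicates 1, 2 and 3 (adjusted p = 0.0734, 0.0888 and 0.0528). The count was then 1, or 2 without sham replicate 2. It was 4 without TAC vehicle replicate 2 and 16 with array weights. The share of all genes called with those settings is not given here, so these counts cannot be set against it.

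At day 28 TAC raised 27 of the 63 genes (42.9%) and lowered 1, where 15.1% of all genes were called (8.13% higher and 6.98% lower). The median change was 0.22, against −0.05 for all genes, and 54 of the 63 were above 0. TAC arrays lay wholly above sham arrays for 40 of the 63, where this held for 16.6% of all genes. The 27 were 14 of 30 large subunit proteins, 11 of 21 small subunit proteins, 1 of 3 P-stalk proteins and 1 paralogue. The changes were small: the 27 lay between 0.22 and 0.46 on the log2 scale. Bright probe sets were called more often in general, and among the 42 family members with a mean level above 10, 24 were called with a median of 0.25. Other genes with such levels were called in 35.2%, with 12.2% called higher and a median of −0.06.

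**Figure D2:**
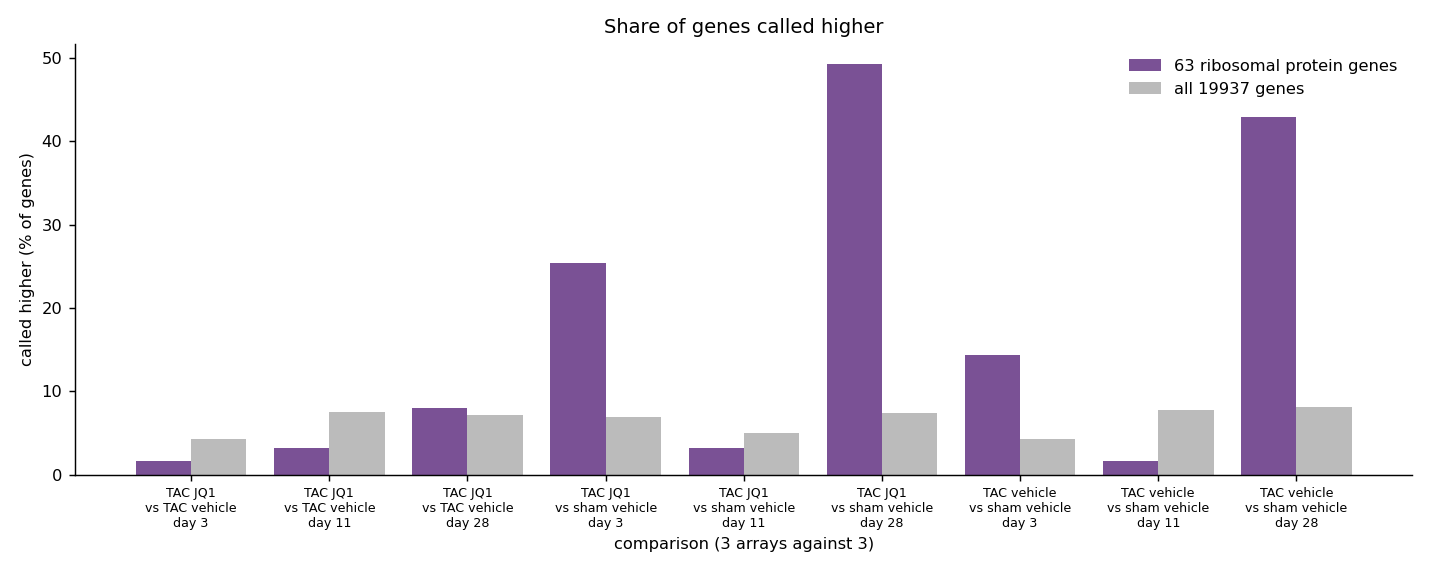
Share of genes called higher (adjusted p under 0.05) in each within-day comparison, for the 63 ribosomal protein genes and for all 19937 genes. The family stands above all genes in both comparisons with sham at days 3 and 28, with 49.2% (TAC JQ1) and 42.9% (TAC vehicle) at day 28, and lies between 1.59% and 7.94% in TAC JQ1 against TAC vehicle.

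Of the small subunit proteins Rps20 rose most at day 28. Its level was 11.88, 11.94 and 12.22 in TAC vehicle hearts and 11.63, 11.54 and 11.51 in sham hearts, a change of 0.46 ± 0.08 (1.37-fold, adjusted p = 0.00036). TAC vehicle replicate 3 was the highest of the 6, and the groups did not overlap. Rps12, known in flies for a role in cell competition, had 10.16, 10.15 and 10.48 in TAC vehicle hearts and 9.77, 9.87 and 9.88 in sham hearts (0.42 ± 0.10, adjusted p = 0.00568). Rps15a had 8.35, 8.38 and 8.41 in TAC vehicle hearts and 7.79, 8.20 and 7.89 in sham hearts (0.42 ± 0.12, adjusted p = 0.0165). Rps28 had 10.28, 10.22 and 10.49 in TAC vehicle hearts and 9.83, 9.98 and 9.94 in sham hearts (0.41 ± 0.08, adjusted p = 0.0013). In each of these 3 genes every TAC array was above every sham array. Rps25, which takes part in initiation at internal ribosome entry sites, had 10.90, 11.01 and 11.42 in TAC vehicle hearts and 10.75, 10.80 and 10.73 in sham hearts (0.35 ± 0.11, adjusted p = 0.0258). Rps21 rose by 0.35 ± 0.08 (adjusted p = 0.00274) and Rps4x, encoded on the X chromosome, by 0.33 ± 0.08 (adjusted p = 0.00632). Rps6, the substrate of S6 kinase, had 13.52, 13.58 and 13.54 in TAC vehicle hearts and 13.42, 13.52 and 13.51 in sham hearts and was not called (0.07 ± 0.06, adjusted p = 0.516). Rps19, mutated in Diamond-Blackfan anaemia in humans, changed by 0.18 ± 0.10 and was not called (adjusted p = 0.268). Rps2 was the small subunit protein with the lowest value (−0.08 ± 0.05, adjusted p = 0.355), with all 3 TAC arrays below the sham arrays.

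Of the large subunit proteins Rpl10a, part of the L1 stalk beside the exit site of the transfer RNA, rose most. It had 12.64, 12.64 and 12.70 in TAC vehicle hearts and 12.02, 12.22 and 12.41 in sham hearts (0.45 ± 0.08, 1.36-fold, adjusted p = 0.000393). The TAC arrays were close together and the sham arrays spread. Rpl41, the smallest protein of the ribosome, had 12.43, 12.36 and 12.59 in TAC vehicle hearts and 12.08, 12.16 and 12.12 in sham hearts (0.34 ± 0.07, adjusted p = 0.00122). Rpl36a rose by 0.34 ± 0.08 (adjusted p = 0.00533). Rpl38, needed in the mouse embryo for the translation of Hox messages, had 12.29, 12.34 and 12.37 in TAC vehicle hearts and 11.96, 12.09 and 12.13 in sham hearts (0.28 ± 0.06, adjusted p = 0.00346). Both genes had no overlap between the groups. Rpl10 (0.29 ± 0.06, adjusted p = 0.00176) and Rpl7 (0.25 ± 0.08, adjusted p = 0.0308) also rose. Rpl22, known for binding viral and cellular RNAs outside the ribosome, changed by 0.20 ± 0.08 and was not called (adjusted p = 0.0776). Rpl5, which with Rpl11 and the smallest ribosomal RNA of the large subunit can bind Mdm2, varied widely, with 11.25, 11.46 and 11.62 in TAC vehicle hearts and 11.11, 11.42 and 11.27 in sham hearts (0.18 ± 0.25, adjusted p = 0.669).

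The P-stalk recruits the elongation factors to the ribosome. Of its proteins Rplp1 rose at day 28, with 12.59, 12.49 and 12.56 in TAC vehicle hearts and 12.25, 12.27 and 12.27 in sham hearts (0.28 ± 0.08, adjusted p = 0.0115). Rplp0, often used as a reference gene, had 12.83, 12.81 and 12.71 in TAC vehicle hearts and 12.57, 12.74 and 12.71 in sham hearts (0.11 ± 0.06, adjusted p = 0.243). Rplp2 had a value of −0.08 ± 0.07 (adjusted p = 0.477). The 3 proteins of the stalk were thus not called together, and the differences between them were not tested. Among the paralogues Rps27l, a target of p53, rose, with 10.66, 10.72 and 10.79 in TAC vehicle hearts and 10.33, 10.45 and 10.41 in sham hearts (0.33 ± 0.09, adjusted p = 0.0186). Rpl7l1 (0.11 ± 0.07), Rpl10l (−0.07 ± 0.13), Rpl39l (−0.04 ± 0.17) and Rps4l (−0.01 ± 0.08) were not called (adjusted p = 0.315, 0.771, 0.896 and 0.953). Nor was Rps19bp1 (0.03 ± 0.07, adjusted p = 0.845).

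The count at day 28 was 12 without TAC vehicle replicate 3 and 16 without sham replicate 1. Without TAC vehicle replicate 3 the changes of Rps12, Rps15a and Rps25 were 0.32, 0.40 and 0.20 and not called (adjusted p = 0.0654, 0.064 and 0.256), and not called either were those of Rps15a and Rps25 without sham replicate 1 (adjusted p = 0.112 and 0.0768) or 3 (adjusted p = 0.0667 and 0.0794). With the mean of their probe sets the changes of Rps12 and Rps25 were 0.19 and 0.28 (adjusted p = 0.244 and 0.255).

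**Figure D3:**
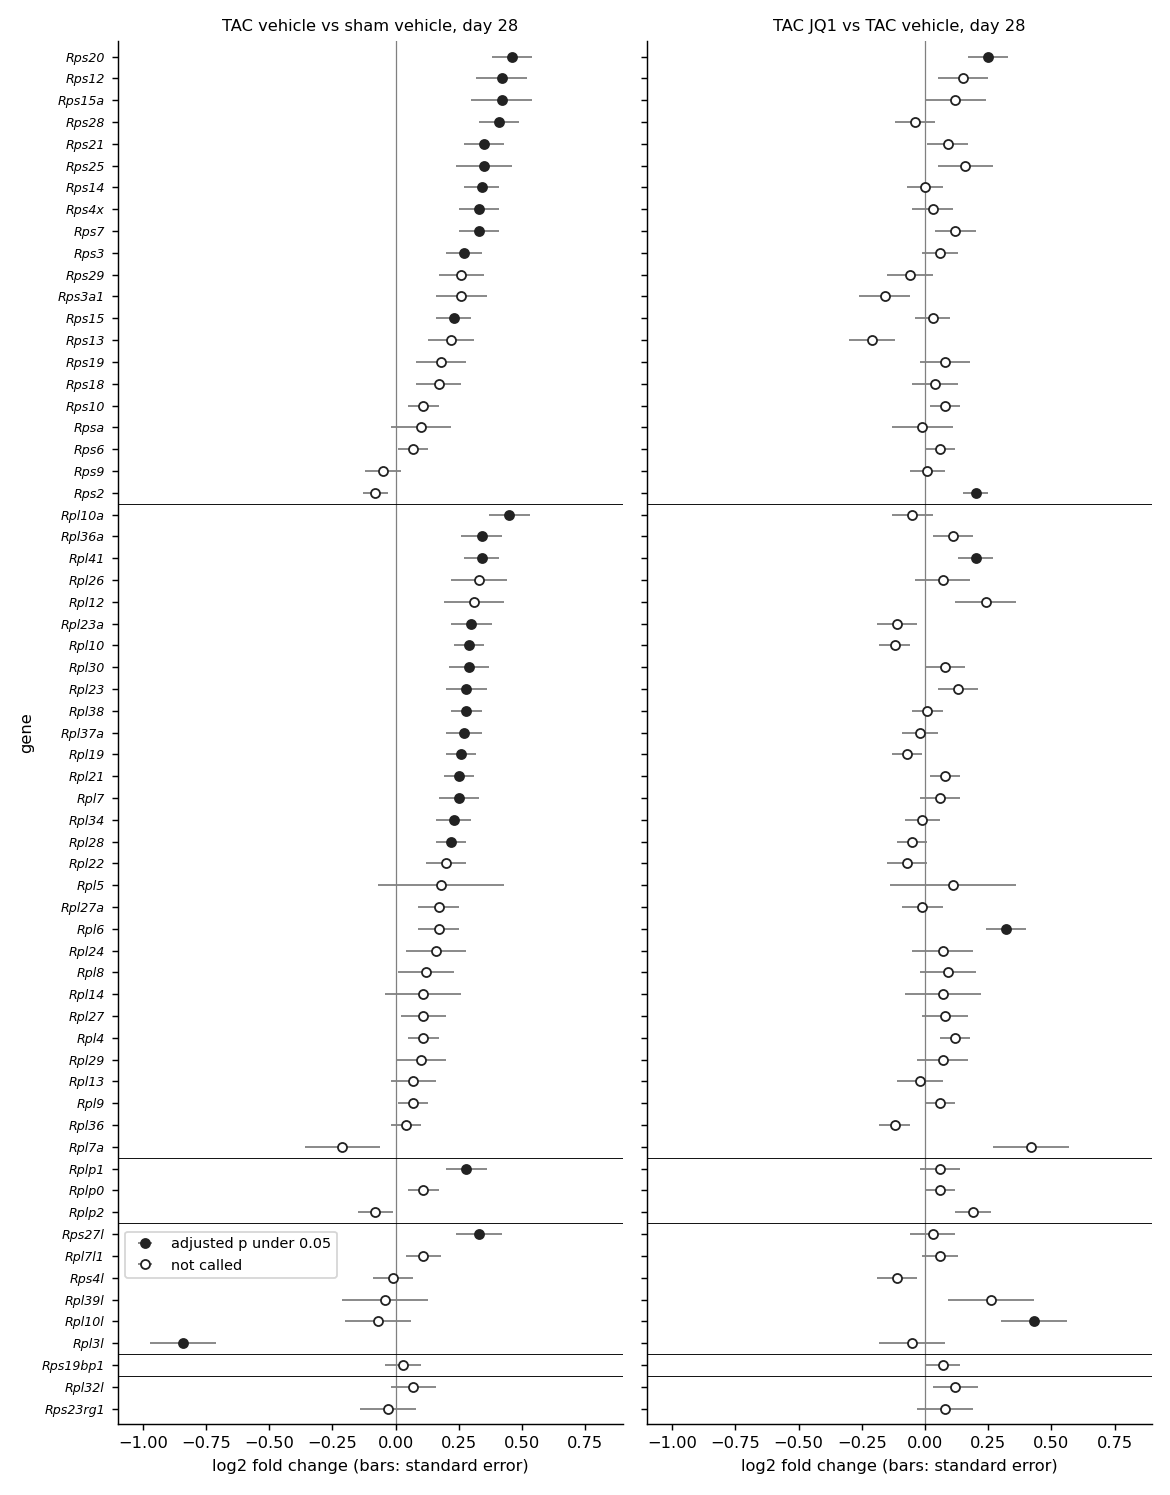
Log2 fold change of each of the 63 genes at day 28 (points; bars are the standard error of the fit), TAC vehicle against sham vehicle on the left and TAC JQ1 against TAC vehicle on the right. Filled points have adjusted p under 0.05; blocks from the top are small subunit, large subunit, P-stalk, paralogues, Rps19bp1 and other symbols. On the left 27 filled points lie right of 0 and Rpl3l alone lies left at −0.84; on the right 5 are filled, all right of 0.

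Rpl3l, unlike the genes that rose, fell with TAC at all 3 days. At day 3 its level was 10.09, 9.56 and 9.88 in TAC vehicle hearts and 10.56, 10.37 and 10.45 in sham hearts, a change of −0.62 ± 0.13 (adjusted p = 0.00502). At day 11 it was 9.71, 9.44 and 9.49 in TAC vehicle hearts and 10.58, 10.44 and 10.60 in sham hearts (−0.99 ± 0.13, adjusted p = 1.68e-05). At day 28 it was 9.69, 10.01 and 9.30 in TAC vehicle hearts and 10.47, 10.54 and 10.49 in sham hearts (−0.84 ± 0.13, adjusted p = 0.000132). At each of the 3 days every TAC vehicle array was below every sham array, and the sham values of all days lay within 10.37 to 10.60. The TAC JQ1 arrays were also all below sham, with 9.30, 9.61 and 9.60 at day 3, 9.87, 9.86 and 9.87 at day 11, and 9.49, 9.65 and 9.72 at day 28. Against sham these are changes of −0.95 ± 0.13, −0.67 ± 0.13 and −0.89 ± 0.13 (adjusted p = 2.59e-05, 0.00173 and 4.09e-05). TAC JQ1 against TAC vehicle gave −0.34 ± 0.13, 0.32 ± 0.13 and −0.05 ± 0.13 and was not called on any day (adjusted p = 0.116, 0.114 and 0.809). The fall at day 3 was not called without TAC vehicle replicate 2 (−0.48, adjusted p = 0.0753) or when only the 2 groups were fitted (adjusted p = 0.0606). Rpl3l was called in 6 of the 9 comparisons and was the only one of the 63 genes called lower in any of them. Its correlation with the mean of the other 62 over the 27 arrays was −0.81. Rpl3 itself is measured by probe sets that name several genes and was not analysed here. In pieces of heart fewer cells of a type and less RNA per cell cannot be told apart. Of 6 cardiomyocyte markers 0 were called lower with TAC at day 3, 1 at day 11 and 2 at day 28, and 0 higher. Their median changes were 0.01, −0.1 and −0.09, and at day 28 2 of the 6 lay above 0. The 2 called at day 28 were Ryr2 with a change of −0.45 ± 0.07 and Myh6 with −0.26 ± 0.05 (adjusted p = 0.000173 and 0.000596). The part of cell composition in the change of Rpl3l was not tested.

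**Figure D4:**
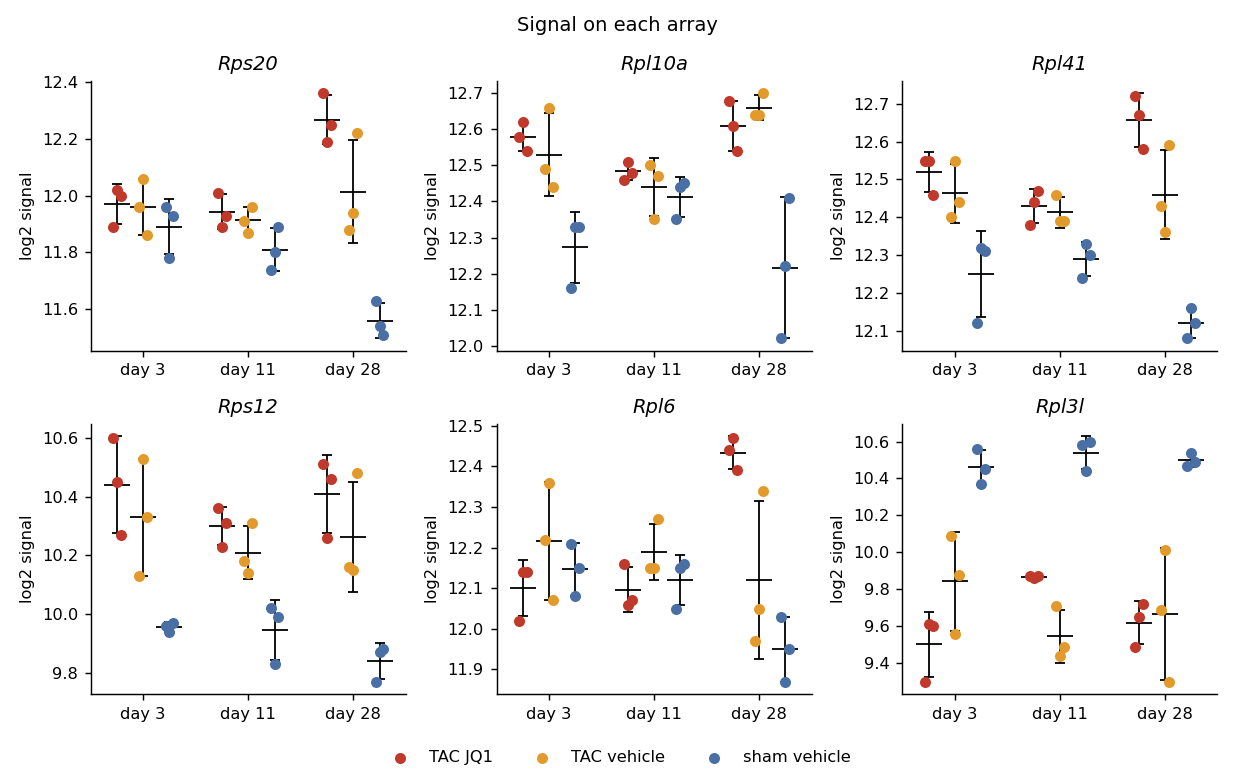
Log2 signal of 6 genes on each array by day and group (points are arrays, bars the group mean ± SD; each panel has its own scale). Rps20, Rpl10a, Rpl41 and Rps12 are lowest in sham vehicle at day 28, Rpl6 is highest in TAC JQ1 at day 28, and Rpl3l is highest in sham vehicle at each day.

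JQ1 changed few of the 63 genes in hearts with TAC, and none was called lower on any day. At day 3 it raised 1, Rpl29, where 11.9% of all genes were called (4.28% higher and 7.61% lower). Rpl29, a large subunit protein also described as a heparin-binding surface protein, had 9.04, 8.65 and 8.81 in TAC JQ1 hearts and 8.57, 8.58 and 8.37 in TAC vehicle hearts (0.33 ± 0.10, adjusted p = 0.0277). The groups did not overlap. The call ended without TAC JQ1 replicate 1 (0.22, adjusted p = 0.196) or TAC vehicle replicate 3 (0.26, adjusted p = 0.139), the count was 2 without TAC JQ1 replicate 3 or TAC vehicle replicate 2, and with a brighter probe set that names several genes the change was −0.02 (adjusted p = 0.939).

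At day 11 JQ1 raised Rps2 and Rpl12, 2 of the 63, where 16% of all genes were called (7.52% higher and 8.43% lower). Rps2, which lines the entry of the messenger RNA channel, had 12.83, 12.91 and 12.93 in TAC JQ1 hearts and 12.68, 12.69 and 12.71 in TAC vehicle hearts (0.19 ± 0.05, adjusted p = 0.0123). Rpl12, at the base of the P-stalk, had 7.64, 7.53 and 7.36 in TAC JQ1 hearts and 7.24, 6.90 and 7.29 in TAC vehicle hearts (0.37 ± 0.12, adjusted p = 0.0375). In both genes every TAC JQ1 array was above every TAC vehicle array. Rpl12 was not called without TAC JQ1 replicate 1 or 2 or TAC vehicle replicate 1 or 2 (adjusted p = 0.168, 0.104, 0.0515 and 0.242), with the replicate block (adjusted p = 0.0502) or with a brighter probe set that names several genes (0.03, adjusted p = 0.809). Rps2 was not called without TAC JQ1 replicate 2 or 3 (adjusted p = 0.0532 and 0.0525). With arrays centred on bright genes neither was called, and the count was 0 without TAC JQ1 replicate 2, 1 without TAC JQ1 replicate 1 or 3 or TAC vehicle replicate 1 or 2, and 4 without TAC vehicle replicate 3.

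At day 28 JQ1 raised 5 of the 63 genes (7.94%), where 19.6% of all genes were called (7.16% higher and 12.4% lower), so that the family did not stand out from all genes. The median change was 0.06 for the family and 0.06 for all genes. Rpl10l, a paralogue of Rpl10 known from the testis, had 6.82, 7.09 and 6.78 in TAC JQ1 hearts and 6.60, 6.50 and 6.32 in TAC vehicle hearts (0.43 ± 0.13, adjusted p = 0.027). Rpl6 had 12.44, 12.47 and 12.39 in TAC JQ1 hearts and 11.97, 12.05 and 12.34 in TAC vehicle hearts (0.32 ± 0.08, adjusted p = 0.00863). Neither gene overlapped between the groups, although TAC vehicle replicate 3 of Rpl6 lay close to the JQ1 arrays. Rps20 had 12.36, 12.19 and 12.25 in TAC JQ1 hearts and 11.88, 11.94 and 12.22 in TAC vehicle hearts (0.25 ± 0.08, adjusted p = 0.0296). Rpl41 had 12.72, 12.67 and 12.58 in TAC JQ1 hearts and 12.43, 12.36 and 12.59 in TAC vehicle hearts (0.20 ± 0.07, adjusted p = 0.0396). In both genes TAC vehicle replicate 3 lay above the lowest TAC JQ1 array. Rps2 had 12.81, 12.88 and 12.86 in TAC JQ1 hearts and 12.64, 12.69 and 12.61 in TAC vehicle hearts, with no overlap (0.20 ± 0.05, adjusted p = 0.00742). It was the one gene called at both days 11 and 28. The count was 2 without TAC vehicle replicate 2, and 3 without TAC vehicle replicate 1 or TAC JQ1 replicate 2. Rps20 was not called without TAC JQ1 replicate 1 or TAC vehicle replicate 1 or 2 (adjusted p = 0.121, 0.14 and 0.117), and Rpl41 without TAC JQ1 replicate 1 or 2 or TAC vehicle replicate 1 or 2 (adjusted p = 0.134, 0.103, 0.103 and 0.18). Rpl10l was not called without TAC JQ1 replicate 2 or TAC vehicle replicate 2 or 3 (adjusted p = 0.149, 0.0563 and 0.121), nor Rpl6 without TAC vehicle replicate 1 (adjusted p = 0.0645). With the mean of its probe sets the change of Rpl6 was 0.17 (adjusted p = 0.134), and with only the 2 groups fitted 1 of the 63 was called.

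TAC JQ1 hearts were also compared with the sham hearts that served TAC vehicle, so these comparisons share arrays with those above. At day 3, 16 of the 63 were higher and 1 lower, where 17.6% of all genes were called (6.94% higher and 10.7% lower). Of the genes that were higher, the changes with the largest sizes included those of Rpl12 (0.57 ± 0.12), Rpl29 (0.50 ± 0.10), Rps12 (0.48 ± 0.10) and Rpsa (0.39 ± 0.12), with adjusted p = 0.00153, 0.000645, 0.00171 and 0.0218. For Rpl12 the levels were 7.52, 7.43 and 7.35 in TAC JQ1 hearts and 6.95, 6.75 and 6.89 in sham hearts, with no overlap. Rpsa was not called without TAC JQ1 replicate 2 or sham replicate 1 or 3 (adjusted p = 0.104, 0.123 and 0.0764). The count was 5 without sham replicate 1, 9 without TAC JQ1 replicate 2 and 4 when only the 2 groups were fitted. At day 11, 2 were higher (Rpl12, 0.39 ± 0.12, and Rps12, 0.35 ± 0.10, adjusted p = 0.0359 and 0.0297) and 1 lower, where 10.5% of all genes were called (5.01% higher and 5.51% lower). At day 11 1 gene was called without sham replicate 2 or TAC JQ1 replicate 1, where neither Rpl12 (adjusted p = 0.0969 and 0.176) nor Rps12 (adjusted p = 0.146 and 0.12) was. Rpl12 was also not called without sham replicate 1 or TAC JQ1 replicate 2 (adjusted p = 0.178 and 0.106), and Rps12 without sham replicate 3 or TAC JQ1 replicate 3 (adjusted p = 0.0518 and 0.0702).

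At day 28, 31 of the 63 genes (49.2%) were higher in TAC JQ1 hearts than in sham hearts and 1 lower, where 19.9% of all genes were called (7.36% higher and 12.6% lower). The median change was 0.22, against 0.02 for all genes, and 59 of the 63 were above 0. Small subunit proteins were higher in 12 of 21, large subunit proteins in 16 of 30 and P-stalk proteins in 2 of 3. Rps20, with 12.36, 12.19 and 12.25 in TAC JQ1 hearts and 11.63, 11.54 and 11.51 in sham hearts, was higher by 0.71 ± 0.08 (1.63-fold, adjusted p = 1.29e-06). Rpl41 was higher by 0.54 ± 0.07 (adjusted p = 4.5e-06), Rps12 by 0.57 ± 0.10 (adjusted p = 0.000252), Rpl12 by 0.56 ± 0.12 (adjusted p = 0.0015), Rps15a by 0.54 ± 0.12 (adjusted p = 0.00166) and Rps25 by 0.52 ± 0.11 (adjusted p = 0.001). In all 6 the TAC JQ1 arrays lay wholly above the sham arrays. Cell markers moved in this comparison as well. The red cell markers measured, 2 of 2, were higher, with a median change of 1.14. Fibroblast markers were called higher in 4 of 6 (median change 0.5) and macrophage markers in 3 of 6 (0.38). Endothelial markers were called lower in 3 of 6 (−0.2) and smooth muscle and pericyte markers in 2 of 6 (−0.24). Rpl6 was 0.49 ± 0.08 higher in TAC JQ1 hearts (adjusted p = 0.000139), and 0.17 higher in TAC vehicle hearts without a call (adjusted p = 0.189). Rpl10 was not called in TAC JQ1 hearts (0.16 ± 0.06, adjusted p = 0.0585) and rose in TAC vehicle hearts (0.29 ± 0.06). The count of called genes was 24 to 32 when any 1 array of these groups was left out.

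**Figure D5:**
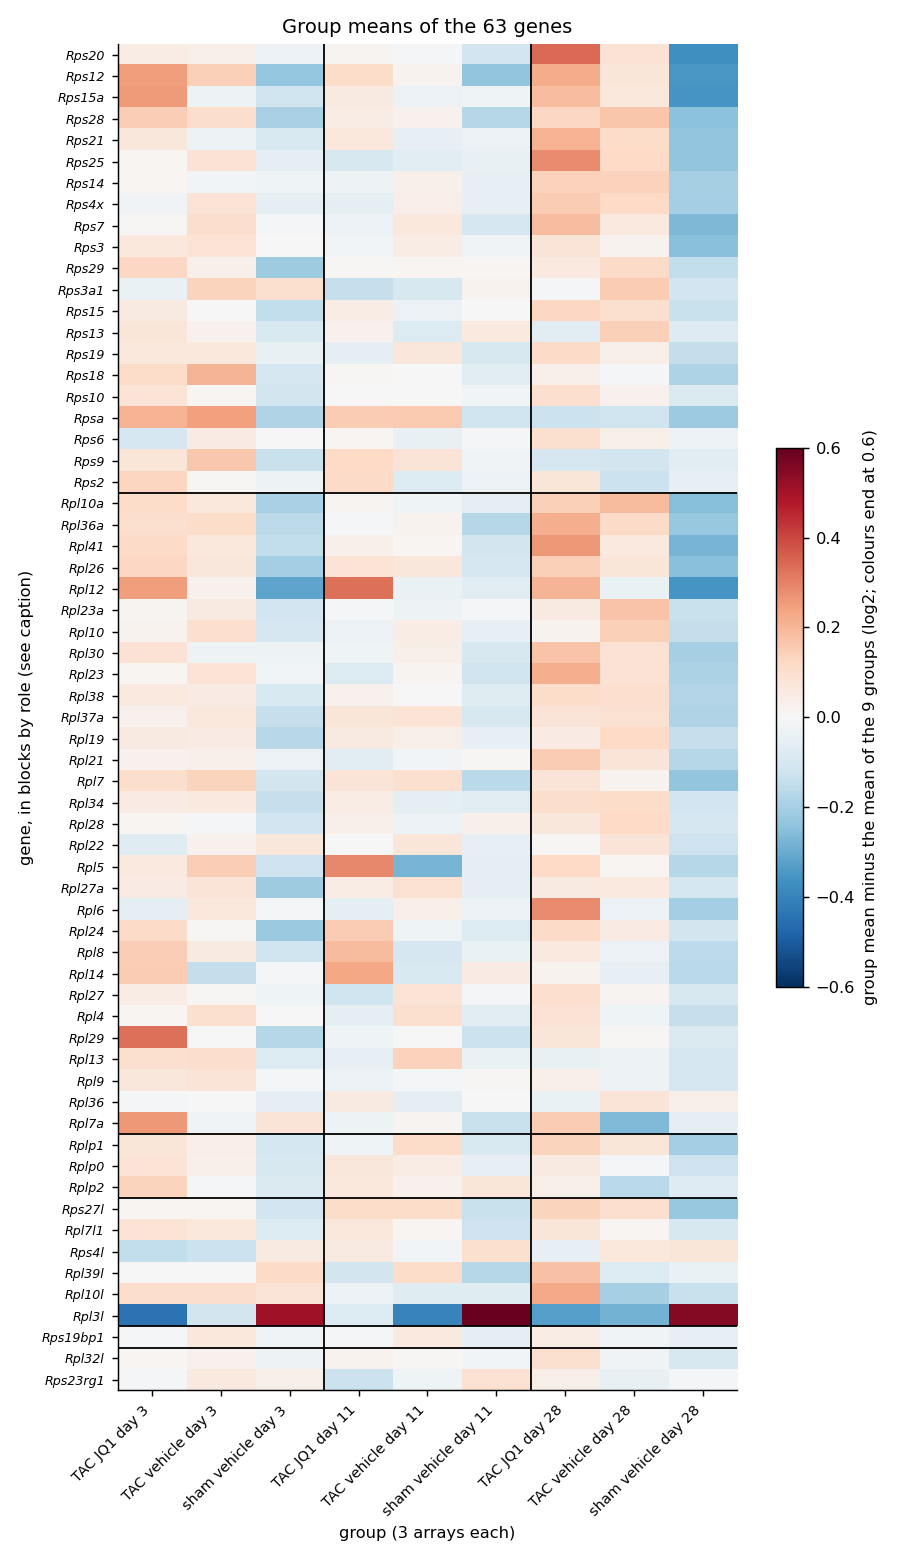
Group means of the 63 genes (rows) in the 9 groups (columns), as log2 deviations from the mean of the 9 groups. Blocks from the top are small subunit, large subunit, P-stalk, paralogues, Rps19bp1 and the symbols Rpl32l and Rps23rg1, each ordered by the TAC change at day 28. The sham column of day 28 is low for most rows, and Rpl3l is high in the 3 sham columns.

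Whether the TAC effect differed between days was tested directly. None of the 63 genes was called by limma (0, against 1.31% of all genes), with 12 at an unadjusted p under 0.05. The smallest adjusted p values were those of Rps20 (0.109), Rpl10a (0.112), Rps21 (0.139), Rpl28 (0.141), Rps14 (0.152) and Rps9 (0.179). With eBayes trend and robust options 2 were called and with array weights 4. Whether the JQ1 effect differed between days also gave 0 calls (1.07% of all genes), with 6 at an unadjusted p under 0.05 and the smallest adjusted p for Rpl6 (0.0775), Rpl3l (0.135) and Rpl4 (0.19). The counts with those settings were 1 and 5, and the shares of all genes called with them are not given here. The larger number of genes called at day 28 than at day 11 is therefore not shown gene by gene to be a change with day.

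Of the 63 genes 44 were called in at least 1 of the 9 comparisons and 19 in none. The share of all genes called in at least 1 of the 9 is not given here, so these counts cannot be set against it. The 19 include Rps6, Rps19, Rpl5, Rpl9, Rpl22 and Rpl36. As a description over the 27 arrays, which share groups and processing, the 1953 pairs of genes had a median correlation of 0.39, with 83.2% above 0. The same figures for pairs of other genes are not given here, and whether the family stands out in them was not tested. Single genes followed the mean of the others to different degrees, with Rpl38 (0.94), Rpl36a (0.93) and Rps12 (0.92) at the top. Rpl3l (−0.81), Rps4l (−0.41) and Rps23rg1 (−0.22) were at the bottom. Outside the family the 5 genes whose arrays most resembled the family mean were Ppia (r = 0.901), which encodes cyclophilin A, Orc6 (0.889) of the origin recognition complex, Macir (0.886), Edem1 (0.867), which acts in the disposal of misfolded glycoproteins, and Cfl1 (0.867), which encodes cofilin.

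Other genes of translation were counted in the same fit. Of all genes, 4.22%, 7.8% and 8.13% were called higher with TAC at days 3, 11 and 28, and 3.33%, 7.73% and 6.98% lower. With JQ1 against TAC vehicle 4.28%, 7.52% and 7.16% were called higher and 7.61%, 8.43% and 12.4% lower. A count near these shares does not set a list apart. Of 17 other messages of translation with a TOP motif, 1 rose and 0 fell with TAC at day 3, 2 rose and 1 fell at day 11, and 5 rose and 1 fell at day 28. The elongation factor Eef1a1, which brings aminoacyl transfer RNA to the ribosome, had 12.88, 12.73 and 12.98 in TAC vehicle hearts of day 28 and 12.29, 12.33 and 12.33 in sham hearts (0.55 ± 0.08, adjusted p = 3.89e-05). Its rise was also called at day 11 (0.40 ± 0.08, adjusted p = 0.000817), when 1 ribosomal protein gene rose. Pabpc1, the poly(A)-binding protein, rose at all 3 days (0.32 ± 0.07, 0.45 ± 0.07 and 0.36 ± 0.07), and Fau, whose product is cleaved to Rps30, at day 28 (0.34 ± 0.07, adjusted p = 0.00158). Pabpc1 rose further with JQ1 at day 28 (0.28 ± 0.07 against TAC vehicle, adjusted p = 0.00912). Of 24 initiation factors 2 rose and 0 fell with TAC at day 3, 2 rose and 0 fell at day 11, and 0 rose and 1 fell at day 28. With JQ1 against TAC vehicle 0, 3 and 5 of them rose at days 3, 11 and 28, and 0 fell.

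The same shares of all genes stand beside the next lists. Of 22 genes of mTORC1 and S6 kinase signalling, 1 rose and 2 fell with TAC at day 3, 0 rose and 6 fell at day 11, and 1 rose and 5 fell at day 28. With JQ1 against TAC vehicle, 2 rose and 0 fell at day 3, 6 rose and 1 fell at day 11, and 0 rose and 3 fell at day 28. Eif4ebp1, the repressor of cap binding that mTORC1 inactivates, had 10.39, 10.46 and 10.36 in TAC vehicle hearts of day 28 and 10.14, 10.06 and 10.11 in sham hearts (0.30 ± 0.06, adjusted p = 0.00232). It was lower in TAC JQ1 than in TAC vehicle hearts at that day (−0.26 ± 0.06, adjusted p = 0.00577). Larp1, which binds TOP messages and holds them back from translation, fell with TAC (−0.39 ± 0.10, adjusted p = 0.00794), as did the GTPase Rragd of the amino acid branch (−0.49 ± 0.12, adjusted p = 0.00556). These values of Larp1 and Rragd are each from 1 day, and those of the other days are not given here. Of 30 genes of ribosome assembly and RNA polymerase I, 3 rose and 0 fell with TAC at day 3, 2 rose and 1 fell at day 11, and 1 rose and 3 fell at day 28. Polr1a, the largest subunit of that polymerase, was among those that fell at day 28, at −0.43 ± 0.08 (adjusted p = 0.000443). Nop56, a core protein of the small nucleolar particles that modify ribosomal RNA, was higher with JQ1 than with vehicle at days 3, 11 and 28 (0.68 ± 0.08, 0.60 ± 0.08 and 0.87 ± 0.08, adjusted p = 4.29e-06, 1.24e-05 and 6.15e-08). With JQ1 against TAC vehicle 2 rose and 3 fell at day 3, 2 rose and 1 fell at day 11, and 2 rose and 0 fell at day 28. Of 8 genes of ribosome quality control 0 rose and 0 fell with TAC at day 3, 1 rose and 0 fell at day 11, and 0 rose and 2 fell at day 28.

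Markers of other cells of the heart moved with TAC as well. All 6 macrophage markers rose at day 28, and their mean level was 9.15, 9.35 and 9.43 in TAC vehicle hearts and 8.19, 8.36 and 8.31 in sham hearts. In TAC JQ1 hearts of that day it was 8.98, 8.55 and 8.74, with 4 of the 6 lower than in TAC vehicle hearts. All 6 fibroblast markers also rose with TAC at day 28, with mean levels of 10.55, 10.25 and 10.73 in TAC vehicle hearts and 9.64, 9.69 and 9.69 in sham hearts, and 2 of 6 were lower with JQ1. Against sham, 3 of the 6 macrophage markers and 4 of the 6 fibroblast markers were called higher in TAC JQ1 hearts of day 28. The family mean of that day was 0.143, 0.063 and 0.075 in TAC JQ1 hearts and 0.000, 0.012 and 0.082 in TAC vehicle hearts. At day 11 all 6 macrophage markers rose with TAC. Of 5 red cell markers 2 were measured, and both were higher with JQ1 at day 28. Alas2, the first enzyme of haem synthesis in red cell precursors, had 10.44, 9.93 and 9.98 in TAC JQ1 hearts, 8.76, 8.93 and 9.0 in TAC vehicle hearts, and 8.58, 8.61 and 8.27 in sham hearts. Its change was 1.22 ± 0.26 against TAC vehicle (adjusted p = 0.00137) and 1.63 ± 0.26 against sham (adjusted p = 5.43e-05). Of 6 endothelial markers 5 were lower in TAC JQ1 than in TAC vehicle hearts at day 28 and 3 lower than in sham hearts. Their mean level was 10.45, 10.10 and 10.28 in TAC JQ1 hearts, 10.63, 10.67 and 10.60 in TAC vehicle hearts, and 10.36, 10.45 and 10.50 in sham hearts. The TAC JQ1 hearts of day 28 were thus higher in red cell markers than both other groups. Of 6 smooth muscle and pericyte markers 2 were lower in TAC JQ1 than in sham hearts. The part of these cells in the ribosomal protein results, the higher values in TAC JQ1 hearts of day 28 included, was not tested.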

How the data were processed

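Expression of mouse heart RNA on 27 arrays was taken from the authors' deposited log2 signals of 34760 probe sets, with no further normalization. Per the labels' protocols, the Ambion WT Expression Kit made the cDNA, which was labelled with an Affymetrix kit. The sources used here do not give the authors' normalization, and the submitters' processing notes name limma without a version. Of the probe sets 21640 name 1 gene, 1321 several and 11799 none in the annotation supplied, and the first kind gave 19937 genes. The symbol rule matched 83 symbols, of which 20 had only probe sets that name several genes and were left out. The 9 group means were estimated per gene in limma 3.58.1 (lmFit and eBayes; R 4.3.3, tables read with data.table version 1.17.8), with 18 residual and 4.9 prior degrees of freedom. Contrasts within each day, and moderated F tests for differences between days, were adjusted by Benjamini-Hochberg over all genes and called under 0.05. The code was tested on simulated data. The number of arrays limits the precision.

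The members and gene lists were chosen with earlier results of these data known. Genes named are a fixed set of well-known members and paralogues, up to 6 called per direction and comparison by size of change, the 6 smallest p per F test, members at the extremes of level or against the majority, and up to 3 per other list by p. Any other genes named, outside that rule, were chosen after their values were seen. Alternatives were quantile normalization again, 2 centrings, leaving out the dimmest genes, the mean of probe sets, admitting probe sets that name several genes, trend and robust options, array weights, fitting only the groups compared, the replicate number as a block, and leaving out each array.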

Additional observations from a re-analysis of the deposited data

Results flagged for a closer look

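Probe sets that name several genes were outside the comparisons above, and 20 symbols of the family are measured only by such probe sets. With them admitted, 17 of these 20 symbols were called higher and 0 lower with TAC at day 28 (median log2 change 0.35), where 8.26% of the 19957 genes in that fit were called higher. At day 3 the count was 8 higher and 0 lower (4.29% of all), and at day 11 it was 3 higher and 0 lower (7.81%). Against sham the TAC JQ1 hearts gave 7, 2 and 17 higher at days 3, 11 and 28 (7%, 5.02% and 7.46% of all). JQ1 against TAC vehicle gave 0 calls in limma at each of the 3 days, with 0, 3 and 0 of the 20 at an unadjusted p under 0.05. A probe set that names several genes gives no value for any single one of them. It can also stand for several of the symbols, and the number of distinct probe sets behind these counts is not given here. The symbols are therefore not shown to be separate measurements.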

How the results depend on the processing

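The limits of these results lie in the number of arrays and in small changes. The counts given here are of the 63 genes called. Shares of all genes called under each setting are not given beside them. Whether a count stands out from all genes under its setting thus cannot be said. Leaving out each array in turn gave 0 to 11 for TAC at day 3 (10 with all arrays), 1 to 4 at day 11 (2) and 12 to 28 at day 28 (28). For JQ1 against TAC vehicle it gave 0 to 2, 0 to 4 and 2 to 7 at the 3 days, for TAC JQ1 against sham 5 to 18, 1 to 3 and 24 to 32, and for the tests between days 0 to 1 (TAC), 0 to 1 (JQ1) and 0 to 0 (sham). With several-gene probe sets admitted, of 83 symbols, TAC gave 23, 5 and 49 at days 3, 11 and 28, TAC JQ1 against sham 26, 6 and 51, and JQ1 against TAC vehicle 0 at day 3 and 3 at day 28. Some of these symbols can share a probe set. Fitting only the groups compared gave 0 for TAC at day 3, 0, 1 and 1 for JQ1 against TAC vehicle, and 4 for TAC JQ1 against sham at day 3. Array weights gave 16 for TAC and 9 for JQ1 at day 11, 35 and 10 for TAC JQ1 against sham at days 3 and 11, and 4, 5 and 9 for the tests of TAC, JQ1 and sham between days. Quantile normalization gave 6 for TAC at day 11 and 2 for JQ1 at day 3, centring on the median 1, 0 and 3 for TAC at day 11 and JQ1 at days 3 and 28, centring on bright genes 0 for JQ1 at day 11, and the mean of probe sets 1 for TAC at day 11. Trend and robust options gave 3 for JQ1 at day 3, 5 for TAC JQ1 against sham at day 11, and 2 and 1 for the tests of TAC and JQ1 between days. Without the dimmest genes the counts were 6 for TAC JQ1 against sham at day 11 and 1 for the JQ1 test between days. The causes were not tested, except that fewer samples or genes enter some of these fits. For 41 named genes and comparisons, 656 alternative values were computed, of which 541 were called in the same direction, 114 had the same direction without a call and 1 reversed (Rpl29 for JQ1 at day 3, −0.02 with several-gene probe sets). Same-numbered arrays of different groups had a median correlation of their deviations of −0.018 over 108 pairs (−0.462 to 0.5). For arrays with other numbers it was 0.006 over 216 pairs (−0.525 to 0.544). Over all pairs the numbers thus showed no pairing, and pairing within single days was not tested. With the replicate block the counts were 7, 2 and 28 for TAC at days 3, 11 and 28, and 1, 1 and 5 for JQ1.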

Other observations

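Among the 63 genes 38 had more than 1 probe set that names the gene alone, 195 probe sets in all. At day 28 the TAC change was above 0 in 170 of the 195, and in 24 of the 38 genes all probe sets had the same direction. Rpl13 had 9 probe sets, whose changes ran between −0.62 and 0.43, while the 7 of Rps18 and the 7 of Rps6 were all above 0 (0.14 to 0.44 and 0.07 to 0.17). All 3 of Rps2 were below 0 (−0.09 to −0.01).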
